A study of Mus musculus with 6 samples.

Results

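De novo lipogenesis, the making of fatty acids from carbohydrate carbon, was followed here through the messenger RNA of 10 genes in mouse epididymal white adipose tissue, a visceral fat pad that lies along the epididymis. The genes were picked by symbol from the 48897 genes of the deposited table: Acly and Me1, which supply carbon and reducing power, the carboxylases Acaca and Acacb, the synthase Fasn, the elongase Elovl6, the desaturases Scd1 and Scd2, and the transcription factors Srebf1 and Mlxipl. All 10 were found, and all 10 passed the filter on low counts. The study addressed how weight cycling affects metabolic homeostasis. All libraries came from wild-type C57BL/6 mice aged 35 weeks whose diets began at 6 weeks of age. Group F-L is read as continuous feeding of a low-fat diet with 10% of calories from fat, and F-H as continuous feeding of a high-fat diet with 60% of calories from fat. Group F-H-L is read as 9 weeks of the high-fat diet and then 10 diet cycles. A cycle was 1 week of low-fat food and then 1 week of high-fat food, so by this account the last diet eaten was high in fat. Codes and diets are matched here through the letters of the codes, since no label spells them out. The groups are also called low-fat, high-fat and cycled. There were 2 libraries per group, and whether they came from different mice is not said: the p-values speak only of the spread among libraries, part or all of which may be technical.

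The pathway starts from citrate exported from mitochondria. ATP citrate lyase cleaves it into cytosolic acetyl-CoA, acetyl-CoA carboxylase turns that into malonyl-CoA, and fatty acid synthase builds palmitate from malonyl-CoA with NADPH as the reductant. Palmitate is then lengthened and desaturated before it is stored as triglyceride. In adipose tissue the programme is known to be promoted by insulin and glucose, through the sterol regulatory element-binding protein SREBP-1, encoded by Srebf1, and the carbohydrate response element-binding protein ChREBP, encoded by Mlxipl.

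Total counts ran from 41091012 to 49230161 per library. The members held between 602 counts, for Acacb in F-L replicate 1, and 1672075 counts, for Scd1 in F-H-L replicate 1, so counting error was small for most differences, though not for the closest pairs of libraries. The F-L libraries stood apart from each other. Together 20 adipocyte markers, none at 0 in any library, made up 0.341% of counts in F-L replicate 1 but 2.88% in F-L replicate 2, against 2.11% and 2.85% on the high-fat diet and 4.21% and 4.59% after cycling. By contrast, 18 markers of epididymis epithelium took 1.97% and 0.438% of counts in F-L, 0.000339% and 0.0514% in F-H, where 6 of them were at 0 in replicate 1, and 0.190% and 0.163% in F-H-L. A list of 14 testis germ cell markers reached 0.0649% and 0.746% in F-L and at most 0.0156% elsewhere. The 15 macrophage markers took 1.56% and 0.937% in F-H, 0.0506% and 0.120% in F-L, and 0.204% and 0.159% in F-H-L. Adipose progenitor markers ranged from 0.0788% to 0.343% over libraries, endothelial markers from 0.0266% to 0.186%, mesothelial markers from 0.000695% to 0.155%, brown-type adipocyte markers from 0.000538% to 0.00685% and liver markers from 0.00392% to 0.135%. In whole tissue, fewer cells of a type and less RNA per cell cannot be told apart. The part of these cell types in the results was not tested.

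Lipogenic genes are known to be switched on through sites before their starts, and 8 of the 10 members had a promoter entry in RefSeq (assembly GRCm38.p6, 12 start sites), of which the 250 bases upstream were read. The windows of Fasn and Elovl6, and of both factors, Srebf1 and Mlxipl, are shown 5′ to 3′ on the gene's strand with motif matches in capitals. They set the sequence before a pair of enzymes beside that before the regulators. The members without an entry were Scd1 and Scd2. Whether any motif bears on the levels was not tested.
Fasn, chr11:120824548-120824797, minus strand: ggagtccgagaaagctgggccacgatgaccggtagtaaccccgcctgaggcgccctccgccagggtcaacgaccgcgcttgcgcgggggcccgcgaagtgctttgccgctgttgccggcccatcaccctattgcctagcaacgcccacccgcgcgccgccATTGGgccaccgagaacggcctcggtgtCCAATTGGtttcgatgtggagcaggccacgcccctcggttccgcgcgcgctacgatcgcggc
Elovl6, chr3:129532136-129532385, plus strand: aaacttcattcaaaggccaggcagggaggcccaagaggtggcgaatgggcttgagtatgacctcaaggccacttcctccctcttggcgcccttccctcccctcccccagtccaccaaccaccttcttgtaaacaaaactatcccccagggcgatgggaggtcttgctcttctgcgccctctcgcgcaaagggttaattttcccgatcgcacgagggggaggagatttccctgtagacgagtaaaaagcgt
Srebf1, chr11:60210472-60210721, minus strand: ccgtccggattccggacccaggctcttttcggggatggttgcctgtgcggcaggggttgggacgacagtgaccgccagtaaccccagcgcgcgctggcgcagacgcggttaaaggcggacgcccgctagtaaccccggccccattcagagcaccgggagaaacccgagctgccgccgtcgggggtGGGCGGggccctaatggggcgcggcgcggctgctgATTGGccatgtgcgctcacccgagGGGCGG
Mlxipl, chr5:135089640-135089889, plus strand: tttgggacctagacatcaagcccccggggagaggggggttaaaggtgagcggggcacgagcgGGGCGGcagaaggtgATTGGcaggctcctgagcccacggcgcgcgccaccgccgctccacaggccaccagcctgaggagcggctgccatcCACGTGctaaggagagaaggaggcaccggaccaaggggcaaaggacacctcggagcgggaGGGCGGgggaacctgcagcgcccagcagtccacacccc
Mlxipl, chr5:135106641-135106890, plus strand: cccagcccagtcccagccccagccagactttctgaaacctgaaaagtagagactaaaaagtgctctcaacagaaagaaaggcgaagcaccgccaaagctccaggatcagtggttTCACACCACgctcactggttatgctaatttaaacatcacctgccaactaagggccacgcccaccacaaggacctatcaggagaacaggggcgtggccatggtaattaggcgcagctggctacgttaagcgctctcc

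Motifs searched on both strands were the CCAAT box (CCAAT, bound by NF-Y), the E-box CACGTG, the GC box GGGCGG, and one spelling of the sterol regulatory element, TCACNCCAC. Fasn held 3 CCAAT matches, at -90, -62 and -59 from its start site, of which the last 2 overlap each other on opposite strands. The Elovl6 window held none of the 4 motifs. The Srebf1 window shown held 1 CCAAT match at -30 and 2 GC boxes at -65 and -6. The upstream Mlxipl window held 1 E-box at -98, 1 CCAAT match and 2 GC boxes, and the window of the other start held a sterol element match at -136. Over 32851 RefSeq windows of this length, 33.8% held CCAAT, 32.7% a GC box, 6.02% the E-box and 1.05% the sterol element, so CCAAT and GC boxes are common letters in such windows. Srebf1 has 3 start sites in this table and Mlxipl 2, and counts per gene do not separate the transcripts that begin at each.

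The carbon and NADPH suppliers had unlike profiles. Acly (mm10, chr11:100476352-100528000) encodes ATP citrate lyase. Its level was 161 and 147 RPKM (reads scaled by gene length and library size) on the low-fat diet, 94.1 and 70.2 on the high-fat diet and 139 and 94.2 after cycling. In RPKM both F-L libraries lay above all 4 others, and the lower F-H-L library lay beside the higher F-H library. In edgeR's quasi-likelihood test over all 22289 genes, the F-H-L level was higher than that of F-H by 0.52 ± 0.38 on the log2 scale (SE, n = 2 per group, Benjamini-Hochberg adjusted p = 0.633). Against F-L the F-H-L difference was -0.15 ± 0.37 (adjusted p = 0.841), and on the scale of that test these groups overlapped. Me1 (chr9:86581363-86695914) encodes cytosolic malic enzyme, which yields NADPH. It stood at 8.66 and 164 RPKM on the low-fat diet, 87.5 and 116 on the high-fat diet and 199 and 167 after cycling. The gap within F-L was 18.9-fold, the widest of any member, so the F-L mean describes neither library. Me1 was also the one member whose lowest group mean was in F-L (86.4 ± 110 RPKM, SD, n = 2) and not in F-H (102 ± 20.1).

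The carboxylases were less abundant per length. Acaca (chr11:84129677-84401651), the cytosolic form that feeds synthesis, was at 6.39 and 42.8 RPKM on the low-fat diet, 22.3 and 13.5 on the high-fat diet and 38.1 and 28.3 after cycling. Acacb (chr5:114146321-114250761) encodes the form at the mitochondrial outer membrane, whose malonyl-CoA restrains fatty acid import for oxidation. Its levels were 1.55 and 8.57 RPKM on the low-fat diet, 3.23 and 5.59 on the high-fat diet and 7.49 and 8.70 after cycling. For both genes the F-L libraries spanned the F-H range, and both F-H-L libraries were above both F-H libraries. The F-H-L to F-H differences were 0.90 ± 0.84 (adjusted p = 0.704) for Acaca and 0.92 ± 0.75 (adjusted p = 0.668) for Acacb, each close to its SE. The ratio of Acaca to Acacb RPKM ran from 2.41 to 6.88, and both extremes were F-H libraries, so the balance of the carboxylases did not separate the groups.

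Fasn (chr11:120805958-120824547), which encodes the synthase itself, was at 79.5 and 318 RPKM on the low-fat diet, 147 and 137 on the high-fat diet and 495 and 358 after cycling. The F-H-L libraries lay above all 4 others, and the F-H libraries lay between those of F-L. The F-H-L level was 3.04-fold that of F-H (log2 difference 1.61 ± 0.75, adjusted p = 0.517) and its log2 difference from F-L was 1.38 ± 0.75 (adjusted p = 0.346). By count, its rank among all genes was 11 and 14 after cycling, 50 and 54 on the high-fat diet and 141 and 11 on the low-fat diet. The ratio of Fasn to Acly RPKM was 3.55 and 3.80 after cycling, 1.56 and 1.95 on the high-fat diet and 0.494 and 2.17 on the low-fat diet, with no overlap between F-H-L and either other group.

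Elovl6 (chr3:129532386-129638495) encodes the elongase that lengthens palmitate to stearate. Its level was 25.3 and 14.7 RPKM on the low-fat diet, 3.30 and 3.21 on the high-fat diet and 14.0 and 8.74 after cycling. No F-H library came near those of the other groups. Elovl6 was lower in F-H than in F-L by a log2 difference of -2.40 ± 0.40 (unadjusted p = 0.00129, adjusted p = 0.0608), the smallest p of any member in any comparison. In F-H-L it was 3.53-fold its F-H level (1.82 ± 0.40, unadjusted p = 0.00441, adjusted p = 0.299), and its difference from F-L was -0.58 ± 0.38 (adjusted p = 0.419).

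The desaturases make monounsaturated fatty acids from the saturated products. Scd1 (chr19:44394450-44407709) encodes the main adipose stearoyl-CoA desaturase and was the most abundant member in 5 of the 6 libraries. It reached 360 and 4173 RPKM on the low-fat diet, 1526 and 1318 on the high-fat diet and 7630 and 6437 after cycling. The F-H-L libraries were above all 4 others, while the F-L libraries lay on either side of F-H. Scd1 alone took 3.69% (95% Wilson interval 3.68 to 3.70%) of all counts in F-H-L replicate 1 and 3.11% (3.11 to 3.12%) in replicate 2, against 0.738% and 0.638% in F-H. These intervals cover counting error only. It was 5.02-fold higher in F-H-L than in F-H, the widest difference of the set, but with an SE of 1.35 on a log2 difference of 2.33 (adjusted p = 0.568).

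Scd2 (chr19:44293676-44306864) encodes a related desaturase. Its RPKM was 375 and 140 on the low-fat diet, 79.8 and 66.4 on the high-fat diet and 265 and 214 after cycling. Here both F-H libraries were the lowest, and F-L replicate 1 the highest. The F-H-L level was 3.32-fold that of F-H (1.73 ± 0.60, unadjusted p = 0.0308, adjusted p = 0.433), and the F-H level differed from that of F-L by -1.60 ± 0.60 (adjusted p = 0.152). Scd1 exceeded Scd2 by 28.8- and 30.1-fold in F-H-L, 19.1- and 19.9-fold in F-H and 29.8-fold in F-L replicate 2, but in F-L replicate 1 the ratio was 0.962. Of the 50-base stretches of their annotated transcripts, 4.56% for Scd1 and 3.75% for Scd2 recur in other Scd genes, so most of each gene can be counted apart.

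**Figure D1:**
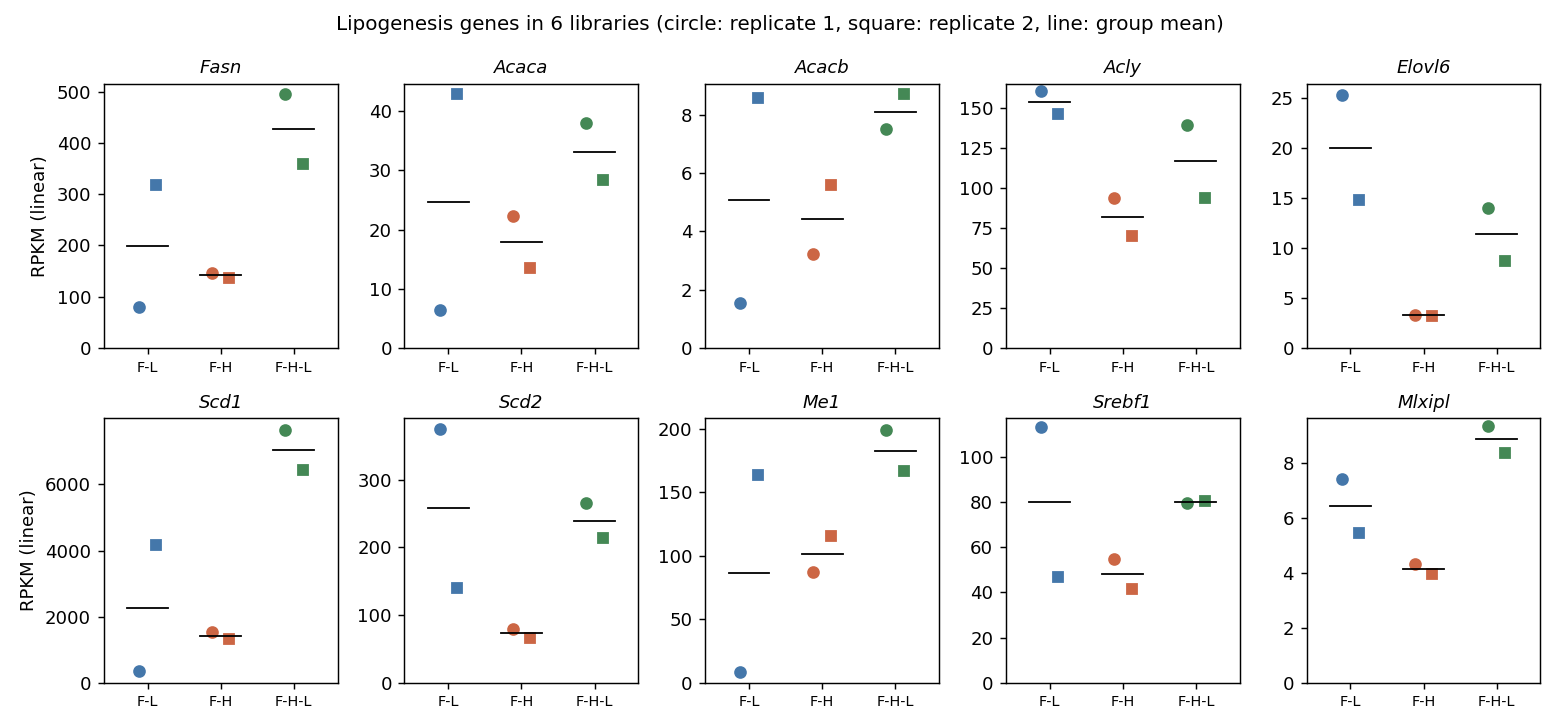
Level of each lipogenesis gene in every library, in RPKM on a linear axis that starts at 0 and differs between panels. Circles are replicate 1, squares replicate 2 and lines the mean of the 2 libraries. The green F-H-L points lie above the F-H points in all 10 panels (in RPKM, before any scaling to adipocyte markers), and the blue F-L points are far apart for Me1, Scd1, Acaca, Acacb and Fasn.

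Of the regulators, Srebf1 (chr11:60199084-60222686) was at 113 and 47.0 RPKM on the low-fat diet, 54.8 and 41.4 on the high-fat diet and 79.7 and 80.6 after cycling. The F-L libraries lay on either side of F-H-L, with a mean of 80.2 ± 47.0 RPKM beside 80.2 ± 0.667 for F-H-L. Srebf1 overlaps Rai1 on the opposite strand. Rai1 was counted at no more than 2664, against at least 8416 for Srebf1, and the strand setting of the counting is not given in the sources used here. Mlxipl (chr5:135089891-135138382) was the less abundant factor, at 7.42 and 5.44 RPKM on the low-fat diet, 4.33 and 3.95 on the high-fat diet and 9.34 and 8.37 after cycling. Its groups did not overlap, in the order F-H, F-L, F-H-L. The F-H-L to F-H difference was 1.12 ± 0.32 for Mlxipl (2.17-fold, unadjusted p = 0.0135, adjusted p = 0.372) and 0.76 ± 0.51 for Srebf1 (adjusted p = 0.613). The ratio of Srebf1 to Mlxipl RPKM was 8.53 and 9.64 after cycling, 12.7 and 10.5 on the high-fat diet and 15.3 and 8.64 on the low-fat diet.

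The cycled group against continuous high-fat feeding, F-H-L against F-H, is the one that sets diet switching against an unbroken high-fat diet. Both F-H-L libraries were above both F-H libraries for all 10 members, although the closest pair, 94.2 against 94.1 RPKM for Acly, lay within counting error: these were 0.0417% of counts each, with 95% Wilson intervals of 0.0411 to 0.0423% and 0.0411 to 0.0422%. With libraries scaled to adipocyte markers, however, 5 of these differences turned negative (Acaca, Acacb, Acly, Me1 and Srebf1). In RPKM, over all genes tested, 33.6% had both F-H-L libraries above both F-H libraries and 27.6% both below. The members' median log2 difference was 1.02 (range 0.52 to 2.33), beside 0.10 over all genes. No single member passed the threshold of adjusted p under 0.05, and nor did any gene (0.0% of 22289). Without adjustment 3 members, Elovl6, Mlxipl and Scd2, had p under 0.05, as did 10.6% of genes. DESeq2 called 1 member, Elovl6 (adjusted p = 0.0122), and 5.36% of genes, and limma on RPKM called no member in any comparison.

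These calls changed when an F-L library was left out, although no F-L value is compared here. Leaving one out changes the shared estimate of spread, and also the filter and scaling, which were run again. With F-L replicate 1 left out, edgeR called 4 members higher in F-H-L: Elovl6 (1.75, adjusted p = 0.0354), Scd2 (1.66, adjusted p = 0.0347), Scd1 (2.26, adjusted p = 0.0370) and Fasn (1.54, adjusted p = 0.0494), where 3.12% of 26552 genes were called. With F-L replicate 2 left out in its place, 3 members were called: Elovl6 (adjusted p = 0.0410), Scd2 (0.0436) and Scd1 (0.0451), where 2.5% of 24350 genes were called. In both fits the lone F-L library is assumed to vary like the other groups. With F-L left out altogether, none of the 10 was called, and 289 of 19779 genes were. The adjusted p in that edgeR fit was 0.0534 for Elovl6 and Scd2, 0.0608 for Mlxipl, 0.0613 for Scd1 and 0.0662 for Fasn. For the other members it ran from 0.104 for Me1 to 0.348 for Acly.

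Continuous high-fat against continuous low-fat feeding, F-H against F-L, gave differences in both directions. The members' log2 differences ran from -2.40 for Elovl6 to 0.50 for Me1, with a median of -0.40 beside -0.12 over all genes. In RPKM, Acly, Elovl6, Scd2 and Mlxipl were lower in both F-H libraries than in both F-L libraries. These were 4 of 10 members, where 36.0% of genes were lower and 20.9% higher in this way. The other 6 overlapped. None of the 10 passed the edgeR test, which called 0.866% of genes. At an unadjusted p under 0.05 stood 2 members, Elovl6 and Scd2, and 29.2% of genes. DESeq2 called 2 members, Elovl6 (adjusted p = 1.6e-05) and Scd2 (0.0354), and 27.1% of genes.

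For 6 members the direction depended on which F-L library was kept. Without F-L replicate 1, the log2 differences were -0.89 for Fasn, -0.98 for Acaca, -0.70 for Acacb, -1.28 for Scd1, -0.43 for Me1 and 0.31 for Srebf1. Of the members only Elovl6 passed (-1.90, adjusted p = 0.0133), among 16.8% of genes called. Without F-L replicate 2, F-H was higher by 3.81 for Me1 (adjusted p = 0.00400), 2.25 for Scd1 (0.0239), 1.77 for Acaca (0.0400) and 1.76 for Acacb (0.0248), while Fasn (1.11) and Srebf1 (-0.96) did not pass. Elovl6 (-2.69, adjusted p = 0.00508) and Scd2 (-2.08, adjusted p = 0.00895) were lower in that fit, where 23.8% of genes were called. Elovl6 was thus lower in F-H against either F-L library. In edgeR it did not pass with these 2 groups fitted alone (adjusted p = 0.191) or with a replicate block (adjusted p = 0.110). With an F-H or F-H-L library left out, its log2 difference ran from -2.42 to -2.28. The library with the low values of Me1, Scd1, Acaca, Acacb and Fasn, F-L replicate 1, was the one with 0.341% of its counts from adipocyte markers. For the other 5 members it lay above F-L replicate 2 in RPKM: Scd2 (2.68-fold), Srebf1 (2.41), Elovl6 (1.72), Mlxipl (1.37) and Acly (1.10). The part of adipocyte content in these gaps was not tested.

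The cycled group against continuous low-fat feeding, F-H-L against F-L, had a member median of 0.72 (range -0.58 to 1.93), beside -0.09 over all genes, and with adipocyte scaling -1.91 beside -3.24. Both F-H-L libraries were above both F-L libraries in RPKM for 4 members, Fasn, Scd1, Me1 and Mlxipl, and below for 2, Acly and Elovl6. Over all genes, 21.5% were above and 33.3% below. Scaled by TMM factors, which the test used for library size and composition, Acacb joined the first 4, and Acly and Elovl6 overlapped. No member and no gene passed (0.0%), no member had an unadjusted p under 0.05, against 17.8% of genes, and DESeq2 called 0 members and 10.9% of genes. Mlxipl had the smallest p (0.71 ± 0.31, unadjusted p = 0.0667, adjusted p = 0.294). With F-L replicate 2 left out, 5 members were called higher, Me1 (4.63), Scd1 (4.52), Fasn (2.65), Acacb (2.62) and Acaca (2.61), with adjusted p from 0.00712 to 0.0229 and 14.4% of genes called. With F-L replicate 1 left out, the same 5 stood at 0.38, 0.98, 0.65, 0.15 and -0.14, and none passed.

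Leaving out the filter on low counts brought 42612 genes into the test and added calls. It called 2 members in F-H against F-L, 2 in F-H-L against F-L and 3 in F-H-L against F-H, beside 14.1%, 9.18% and 4.13% of genes. The 3 comparisons share groups pairwise, so their values are not independent. In mean RPKM, 9 of the 10 members were lowest in F-H, and 9 were again with F-L replicate 1 left out, but 5 with F-L replicate 2 left out, since F-L replicate 1 lay below both F-H libraries for Fasn, Acaca, Acacb, Scd1 and Me1. No member was highest in F-H with or without either F-L library. The fitted F-H against F-L difference of Acacb was 0.05 ± 0.74 and so had the opposite sign to its RPKM means.

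**Figure D2:**
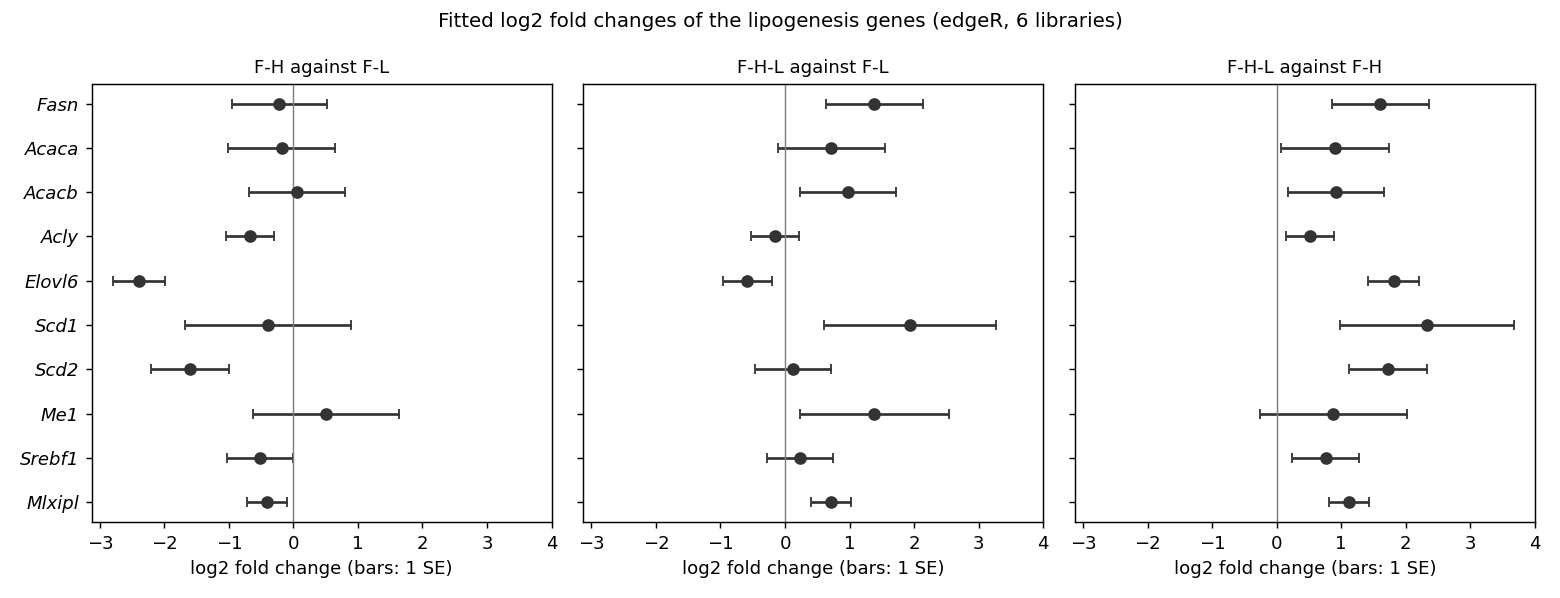
Fitted log2 difference of each member in the 3 comparisons between groups, with bars of 1 SE either side (edgeR, 6 libraries, 2 per group). All points lie right of 0 in F-H-L against F-H, where scaling to adipocyte markers would put 5 of them left of it, and the bars are short for Elovl6, Acly and Mlxipl and long for Scd1 and Me1.

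Adipocyte markers were also more abundant in the cycled group. Of the 20 markers, 18 had a positive log2 difference in F-H-L against F-H, with a median of 0.92 and a range of -0.15 to 2.92, and their summed share was 4.21% and 4.59% of counts in F-H-L against 2.11% and 2.85% in F-H. Scd1, Scd2 and Elovl6 each differed by more than 18 of the 20 markers, Fasn by more than 17 and Mlxipl by more than 14. Acaca and Acacb stood above 10, Me1 above 9, Srebf1 above 6 and Acly above 2. The other marker lists had medians in this comparison of -2.88 for macrophage, -0.67 for progenitor, 0.83 for endothelial, 2.69 for epididymis, 4.06 for germ cell, 0.47 for mesothelial, -0.23 for brown-type adipocyte and -1.18 for liver genes.

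Set against the geometric mean of the adipocyte markers in the same library, 4 members were higher in both F-H-L libraries than in both F-H libraries, where 10.2% of genes were higher and 63.2% lower in this way. Scd1 was at 5.36 and 5.05 log2 units above the markers in F-H-L and 4.25 and 3.64 in F-H, a difference in means of 1.26. Elovl6 differed by 0.72, Scd2 by 0.66 and Fasn by 0.52. For Fasn the gap between groups was narrow, with 1.916 the lower F-H-L value and 1.911 the higher F-H value. Me1 was lower in F-H-L by this measure, with a difference of -0.19. Its gap was narrow too, with -0.309 the higher F-H-L value and -0.283 the lower F-H value. Acaca (-0.12), Acacb (-0.12), Acly (-0.55), Srebf1 (-0.30) and Mlxipl (0.05) overlapped between groups. Relative to its scarce adipocyte markers, F-L replicate 1 was the highest of the 6 libraries for 8 members, with Scd2 at 4.82, Fasn at 3.45, Acly at 3.30, Srebf1 at 2.93, Elovl6 at 1.06, Acaca at -0.19, Mlxipl at -1.21 and Acacb at -2.30. The exceptions were Scd1 and Me1. The library factor taken from these markers was 0.135 in F-L replicate 1 and 0.946 to 2.07 in the others. By this measure every gene of that library is therefore raised. How many of all genes were highest there was not counted, so the 8 show nothing particular to the members. When library factors were taken from the adipocyte markers, the F-H-L to F-H median of all genes moved from 0.10 to -0.90 and that of the members from 1.02 to 0.02. By that scaling the members' median in F-H against F-L was -2.09 beside -2.23 over all genes, and 1 member was called, where 16.3% of genes were.

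**Figure D3:**
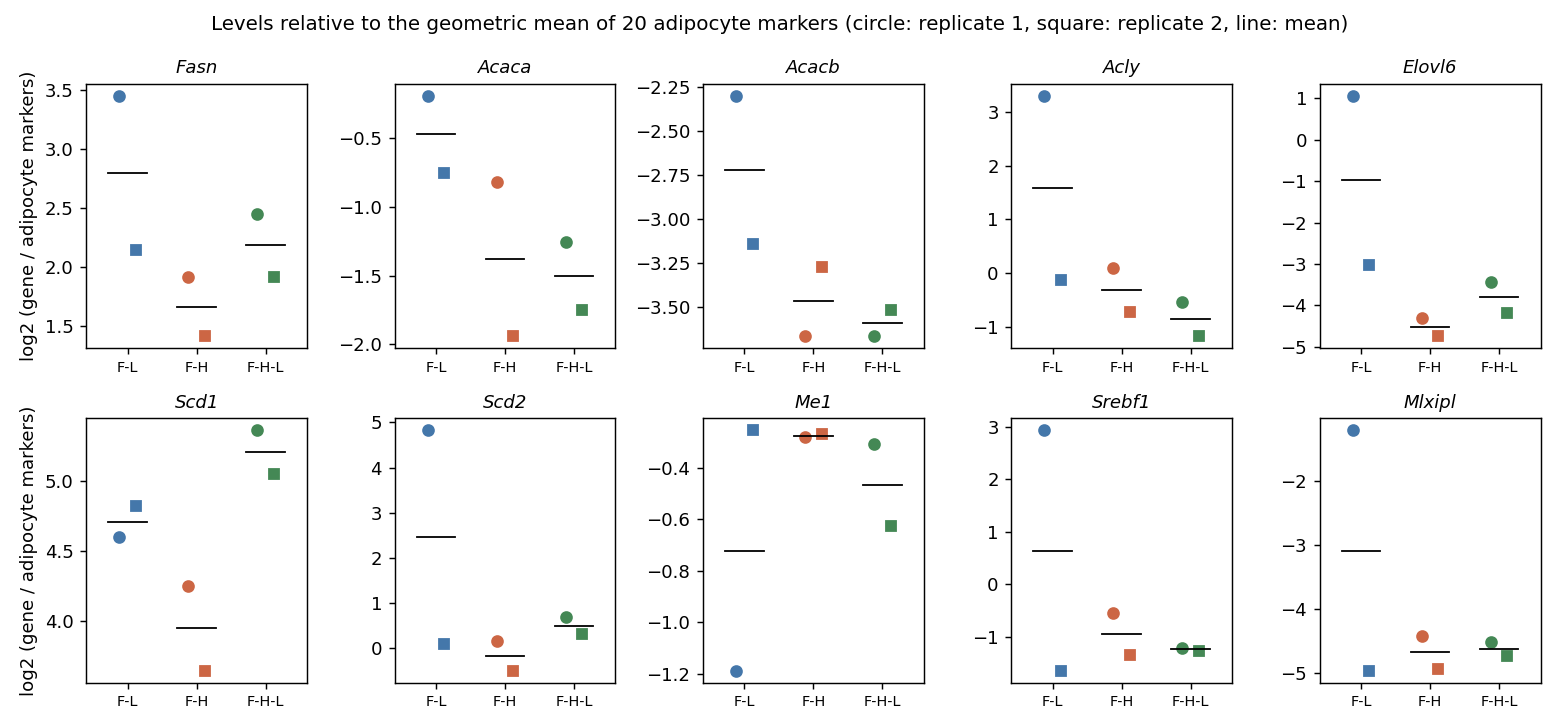
Level of each member relative to the geometric mean of 20 adipocyte markers in the same library, in log2 units, with an axis of its own in each panel. Circles are replicate 1, squares replicate 2 and lines group means. F-H-L lies above F-H for Scd1, Elovl6, Scd2 and, narrowly, Fasn.

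**Figure D4:**
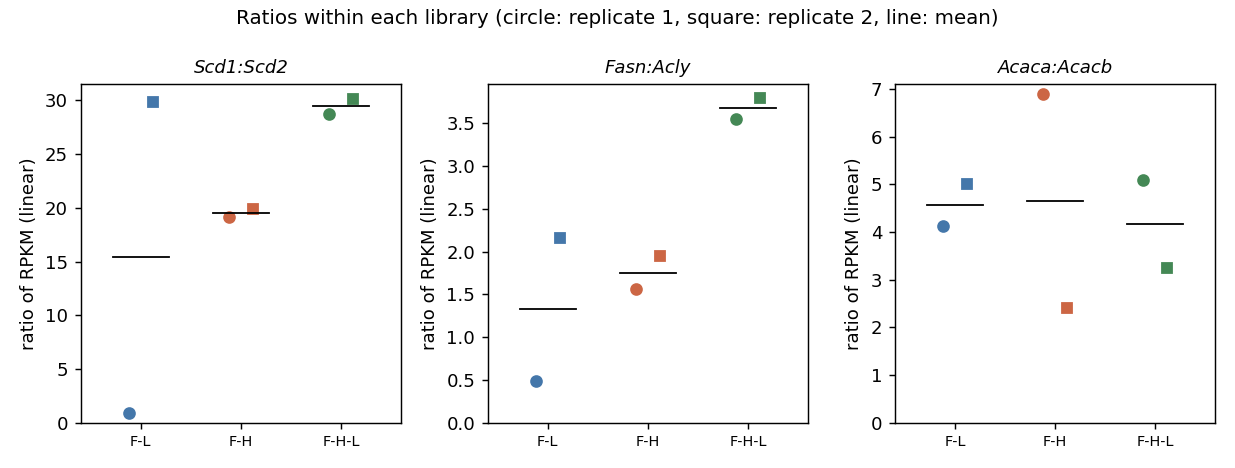
Ratios of RPKM between members within each library, on linear axes that start at 0. Circles are replicate 1, squares replicate 2 and lines means. Scd1 to Scd2 is at 19.1 and 19.9 in F-H and at 28.8 and 30.1 in F-H-L, Fasn to Acly is highest in F-H-L, and Acaca to Acacb varies most within F-H.

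The genes around the pathway were counted in 5 lists. Of 16 genes for acetyl-CoA, citrate and NADPH supply, none passed in any comparison. In F-H-L against F-H, 15 had a positive log2 difference (median 0.43). In F-H-L against F-L, 15 were positive (median 1.03) and 8 had an unadjusted p under 0.05, beside 17.8% of all genes. In that comparison 19 of the 20 adipocyte markers were positive too, with a median of 1.81. Acss2, the cytosolic acetyl-CoA synthetase, was at 18.9 and 76.1 RPKM on the low-fat diet, 26.6 and 35.6 on the high-fat diet and 117 and 81.8 after cycling (F-H-L against F-H 1.70 ± 0.64, adjusted p = 0.455). Slc2a4, the insulin-responsive glucose transporter, was at 15.8 and 17.8 RPKM on the high-fat diet and 40.3 and 45.7 after cycling (1.39 ± 0.62, adjusted p = 0.505). For both, the F-H-L libraries lay above those of F-H. Pgd, an NADPH-producing enzyme of the pentose phosphate pathway, was at 53.7 and 113 RPKM on the low-fat diet, 174 and 200 on the high-fat diet and 242 and 261 after cycling, and its difference of 1.87 ± 0.43 from F-L in F-H-L did not pass (adjusted p = 0.274). Cs, citrate synthase, followed the same order, with a difference of 1.31 ± 0.37 (adjusted p = 0.274).

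Among 14 genes that process SREBP or act with it, none passed, and the direction was mixed: 11 were positive in F-H against F-L (median 0.72), 10 in F-H-L against F-L (median 0.20) and 4 in F-H-L against F-H (median -0.14). Insig1, which retains the SREBP complex in the endoplasmic reticulum and is itself a known SREBP target, was at 56.9 and 81.6 RPKM on the low-fat diet, 80.4 and 140 on the high-fat diet and 291 and 193 after cycling. Both F-H-L libraries were the highest of the 6 (2.06 ± 0.42 against F-L, unadjusted p = 0.00324, adjusted p = 0.274; 1.16 ± 0.41 against F-H, adjusted p = 0.438). Nfya, a subunit of the CCAAT-binding factor NF-Y, stood apart in F-H, at 18.8 and 14.9 RPKM, from 4.80 and 6.16 in F-L and 5.71 and 4.79 in F-H-L. Its differences were 1.86 ± 0.29 in F-H against F-L (adjusted p = 0.0557) and -1.66 ± 0.29 in F-H-L against F-H (adjusted p = 0.244). F-H was also the group with the most macrophage marker counts, 1.56% and 0.937%, and the part of those cells was not tested. Ppargc1b, a coactivator of SREBP, was below 2 RPKM in every library (1.35 ± 0.50 in F-H against F-L, adjusted p = 0.147), and Rxra, a nuclear receptor partner, differed by 1.503 ± 0.42 in F-H-L against F-L (adjusted p = 0.274).

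The 16 accessory and opposing factors had medians of -0.09, 0.17 and 0.44 in F-H against F-L, F-H-L against F-L and F-H-L against F-H, with 7, 11 and 11 of them positive, and none passed. Thrsp, a lipogenic protein that responds to thyroid hormone, was at 131 and 729 RPKM on the low-fat diet, 279 and 170 on the high-fat diet and 792 and 875 after cycling, with a wide gap between the F-L libraries (F-H-L against F-H 1.91 ± 0.81, adjusted p = 0.488). Its relative Mid1ip1, which promotes assembly of acetyl-CoA carboxylase, was at 316 RPKM in F-L replicate 1 and between 27.97 and 45.7 in the 5 other libraries (F-H against F-L -2.48 ± 0.89, adjusted p = 0.141). That value rests on 1 library. Mlycd, malonyl-CoA decarboxylase, differed by 0.75 ± 0.24 and Akt2, a kinase of insulin signalling, by 1.10 ± 0.30 in F-H-L against F-L (adjusted p = 0.274 each). Prkaa1, a catalytic subunit of AMP-activated kinase, differed by 0.63 ± 0.29 in F-H against F-L (adjusted p = 0.223), and Brca1 by -1.75 ± 0.76 in F-H-L against F-H (adjusted p = 0.496).

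The 17 other elongases and desaturases included the only gene of these lists past the test. It passed in F-H against F-L, where 0.866% of all 22289 genes tested did. Elovl2, which extends polyunsaturated fatty acids, was at 19.7 and 20.5 RPKM on the low-fat diet, 0.0666 and 0.0481 on the high-fat diet and 0.585 and 0.561 after cycling. It was lower in F-H than in F-L by a log2 difference of -8.19 ± 0.42 (adjusted p = 0.0447). The call sat at the threshold: it held in 7 of 15 alternative settings and was lost in 8, with adjusted p from 0.0505 to 0.259 in those, including each fit that left out an F-H or F-H-L library. The log2 difference in those 8 settings was -8.45 to -7.88, close to the reported one. Epididymis and germ cell markers were highest in the same F-L libraries, at 1.97% and 0.438% and at 0.0649% and 0.746% of counts, and their part was not tested. Scd3, a further desaturase that shares sequence with Scd1 and Scd2, was at 10.7 and 1.99 RPKM on the low-fat diet, 0.322 and 0.247 on the high-fat diet and 1.98 and 1.503 after cycling (F-H-L against F-H 2.63 ± 0.90, adjusted p = 0.427). Degs1, the dihydroceramide desaturase, differed by 1.59 ± 0.31 in F-H-L against F-L (adjusted p = 0.274). The medians of this list were 0.08, 0.74 and 0.59 in the 3 comparisons, in the order above, with 9, 11 and 13 positive.

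Triglyceride assembly, where the new fatty acids are stored, had 17 genes, 8, 12 and 14 of them positive, with medians of -0.07, 0.44 and 0.58 and none past the test. The acyltransferases did not share a direction. Gpat4 was at 55.8 and 75.7 RPKM on the low-fat diet, 16.5 and 18.9 on the high-fat diet and 24.3 and 27.4 after cycling (F-H against F-L -1.66 ± 0.29, adjusted p = 0.0626). Agpat1 was at 70.8 and 61.1 RPKM on the low-fat diet, 24.8 and 23.2 on the high-fat diet and 26.2 and 27.2 after cycling (-1.23 ± 0.26, adjusted p = 0.0743). In both genes the F-L libraries were close to each other and above all others. Agpat2 was at 45.4 and 154 RPKM on the low-fat diet, 176 and 226 on the high-fat diet and 369 and 453 after cycling. Its F-H-L against F-L difference was 2.33 ± 0.61 (adjusted p = 0.274). Agpat2 exceeded Agpat1 in every library but F-L replicate 1. Gpam, the mitochondrial acyltransferase, was at 15.8 and 18.3 RPKM on the high-fat diet and 27.7 and 27.0 after cycling (0.71 ± 0.26, adjusted p = 0.450), and Lpin3 differed by 1.36 ± 0.46 between the same groups (adjusted p = 0.424).

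Likeness to the members was measured by Pearson's r over the 6 libraries between a gene's log2 CPM and the members' mean standardized profile, and is a description over few points that share depth and group. The members' own r ran from 0.427 for Srebf1 and 0.483 for Me1 to 0.843 for Mlxipl and 0.870 for Fasn. Among 8763 genes outside the lists with a mean of at least 5 RPKM, the highest r were those of Rnase2a (0.983), Bola3 (0.977), Il17d (0.973), Rnf10 (0.971) and Gatb (0.969). Rnase2a was at 0.247 and 2.49 RPKM on the low-fat diet, 0.0294 and 0.0345 on the high-fat diet and 29.6 and 16.7 after cycling, so it met the minimum through the cycled group alone. Il17d was at 5.28 and 6.89 RPKM on the low-fat diet, 3.87 and 3.61 on the high-fat diet and 15.4 and 13.6 after cycling. It was picked for likeness to a profile that the members set, so a shared order of groups is no separate result.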

How the data were processed

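Raw counts for each gene and library were deposited, with RPKM that the authors made from counts, gene length and library total; in 100% of genes with more than 50 counts this was met within a relative 1e-06. A deposited Length column gives bases (unit: other). The submitters' processing notes name bcl2fastq, HISAT2 2.1.0, HTSeq and build mm10; the sources used here give neither annotation nor strand setting. Of 48897 genes, 27 symbols turned into dates were restored by Entrez ID.

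Counts were tested with edgeR 4.0.16 in R 4.3.3 (quasi-likelihood, TMM, filterByExpr, all 6 libraries, 1 term per group), which kept 22289 genes and left 3 residual degrees of freedom. Adjusted p is Benjamini-Hochberg over those genes, two-sided, called under 0.05. An exact permutation test of 2 libraries against 2 cannot go below 0.333. Groups were called apart when both RPKM values of 1 lay above both of the other. No member had a count of 0 in any library.

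The members, the 5 pathway lists and the cell type marker lists were chosen with earlier results of these data known, so their counts are no independent evidence. Named were all 10 members, in each pathway list and comparison the genes past the test or otherwise the 2 with the smallest p, and the 5 genes most like the members. Alternatives were median-ratio factors, no filter, DESeq2 1.42.0, limma 3.58.1 on log2(RPKM + 1) and log2(RPKM + 0.1), a replicate block, the 2 groups alone, robust empirical Bayes, adipocyte scaling and leaving out each library; those for Elovl2 were added after seeing the data. Where a library was left out, the filter was run again, so more genes were tested.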

Additional observations from a re-analysis of the deposited data

How the results depend on the processing

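Log2 differences of single members were recomputed in F-H against F-L, F-H-L against F-L and F-H-L against F-H. Direction and side of the threshold were kept in 123, 133 and 134 recomputations. In 10, 7 and 11 the direction was kept and the threshold was newly passed. The sign changed in 17, 10 and 5, whether or not the threshold was passed. The cause of these changes was not tested. Members called numbered 0 in every comparison, but without the low-count filter 2, 2 and 3, with DESeq2 2 and 1 in F-H against F-L and F-H-L against F-H, with adipocyte scaling 1 in F-H against F-L, and over leave-one-out fits 0 to 6, 0 to 5 and 0 to 4. Medians moved under adipocyte scaling to -2.09, -1.91 and 0.021 (all genes -2.23, -3.24 and -0.90), and over leave-one-out fits ran from -0.68 to 0.27, 0.52 to 1.55 and 0.95 to 1.32. With the replicate block the medians were -0.24, 0.82 and 1.06 and 0 members were called. No label says that equal replicate numbers pair libraries. Deviations of the replicate 1 libraries from their group means correlated across genes at 0.02, -0.14 and -0.02 between groups. With 2 libraries per group, these values cannot settle whether libraries were paired.

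Sign changes in F-H against F-L were Acacb with median-ratio factors (-0.047), DESeq2 (-0.046) and adipocyte scaling (-1.004), Acaca with limma (0.027 and 0.061) and the replicate block (0.025), and Scd1 with limma (0.21 and 0.21) and the block (0.039). Leave-one-out ranges with a sign change were -0.89 to 1.11 for Fasn, -0.98 to 1.77 for Acaca, -0.70 to 1.76 for Acacb, -1.28 to 2.25 for Scd1, -0.43 to 3.81 for Me1 and -0.96 to 0.31 for Srebf1. In F-H-L against F-L, adipocyte scaling gave -0.86 for Fasn, -1.17 for Acaca, -1.05 for Acacb, -3.50 for Scd2, -3.36 for Srebf1 and -2.65 for Mlxipl, and leave-one-out ranges were -0.14 to 2.61 for Acaca, -0.42 to 1.004 for Scd2, -0.27 to 1.002 for Srebf1 and -0.33 to 0.13 for Acly. In F-H-L against F-H, adipocyte scaling gave -0.17 for Acaca, -0.045 for Acacb, -0.53 for Acly, -0.11 for Me1 and -0.30 for Srebf1. With 2 libraries per group, the members' SEs of 0.31 to 1.35 on the log2 scale limit what could be called.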
